A study of Mus musculus with 9 samples.

Results

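The Toll-like receptors Tlr1 to Tlr9 and the co-receptor Cd14 were taken from the gene table by their symbols, 10 genes of 34745. All 10 were in the table and all 10 passed the filter on low counts, which left 14134 genes to test. Tlr6 and Tlr9 met that filter only through the groups given CCl4. RNA sequencing of messenger RNA was done on 9 liver samples of C57BL/6 mice aged 12 weeks, 3 per group. The first group, here KO CCl4, was labelled KO and received carbon tetrachloride (CCl4), and the series describes the mutant as Tgfbr2HKO. The second, WT CCl4, was labelled WT and received the same CCl4 course of 0.25 ml per kg into the peritoneum, 2 times a week for 4 weeks. The third, WT NC, was labelled WT with the treatment NC. The series names floxed Tgfbr2f/f mice beside the mutant, and reading WT as that genotype in both groups is an inference, since the sample labels give WT alone. The sources used here do not say how HKO was made, which promoter drove any recombinase or what the abbreviation NC means, and no KO liver without CCl4 was analysed here. CCl4 is a solvent whose breakdown in hepatocytes damages them, and giving it repeatedly is a common model of liver injury and scarring.

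Toll-like receptors are membrane proteins that recognise molecules typical of microbes, and some are also engaged by molecules released from damaged cells. Those at the cell surface (Tlr1, Tlr2, Tlr4, Tlr5 and Tlr6) bind lipids, lipoproteins and flagellin, and those in endosomes (Tlr3, Tlr7, Tlr8 and Tlr9) bind nucleic acids. All signal through adaptors of the MyD88 or TRIF kind to NF-kB and interferon regulatory factors, which turn on cytokine and chemokine genes. In the liver, which receives gut-derived microbial products through the portal vein, Kupffer cells, infiltrating monocytes and other non-parenchymal cells carry most of these receptors.

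The libraries held 16447353 to 20373585 counts each. In each library 15932 to 17614 genes were detected. Expression is given as CPM (a gene's count relative to the library total, with totals scaled by the TMM method), and a count of 3 in 1 library corresponds to 0.141 to 0.207 CPM, a floor that covers counting error only. Mitochondrial genes took 19.3% to 21.0% of counts in KO CCl4, 25.4% to 26.3% in WT CCl4 and 9.13% to 12.0% in WT NC, and the part of this difference in the results was not tested. Tgfbr2, the targeted gene, stood at 23.5, 69.9 and 28.3 CPM in the libraries labelled KO 72, KO 75 and KO 79, against 126, 90.4 and 75.2 CPM in WT CCl4 11, 12 and 13 and 31.5, 30.2 and 38.6 CPM in WT NC 1, 2 and 3, and the difference between KO CCl4 and WT CCl4 did not pass edgeR's test (log2 fold change -1.26 ± 0.39 SE, adjusted p = 0.0759). Without KO 75 the log2 fold change of Tgfbr2 was -1.91 (edgeR adjusted p = 0.00110), lower in KO CCl4. The Tgfbr2 level of KO 75 was close to that of WT CCl4 13, and whether its label is right could not be settled from the files. The library labelled KO 75 stood apart from the others labelled KO. On the first principal component, which held 76.3% of the variance, it lay at 69.5, while KO 72 lay at -31.7, KO 79 at -2.75, the WT CCl4 libraries between 63.7 and 119 and the WT NC libraries between -108 and -98.9. Directions given for KO below are those of the libraries so labelled, and results that rest on KO 75 are given with and without it. The labels name hepatocyte as the cell type, but markers of other cells were present: no marker of the macrophage, Kupffer cell or B cell lists was at 0 in any library.

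In WT livers given CCl4 9 of the 10 receptor genes were higher than in WT NC livers and 1, Tlr5, was lower (quasi-likelihood test of edgeR, p-values adjusted over all genes by Benjamini and Hochberg, threshold 0.05). Over all genes tested 54.4% were called in this comparison, 29.5% higher and 25% lower. For all 10 receptor genes the WT CCl4 and WT NC libraries did not overlap, as was the case for 34.7% of all genes upward and 31.6% downward. For all 10 the KO CCl4 mean lay between the means of those groups. Against WT NC, 6 were higher in KO CCl4 (Tlr1, Tlr2, Tlr7, Tlr8, Tlr9 and Cd14) and Tlr5 was lower, beside 23% of all genes called (14% higher, 8.98% lower). Among those 7, the libraries of Tlr7 overlapped between the groups, and for the others, as for Tlr3 and Tlr4, they did not, as was so for 23.3% of all genes upward and 21.4% downward. Against WT CCl4, only Tlr2 passed the test in KO CCl4, as lower, beside 5.07% of all genes called (3.46% higher, 1.61% lower). The median log2 fold change of the 10 genes was -1.23 for KO CCl4 against WT CCl4, 3.90 for WT CCl4 against WT NC and 2.39 for KO CCl4 against WT NC. The medians over all genes tested were -0.03, 0.04 and 0.04. Each pair of comparisons shares a group of libraries, so their directions are not independent of each other. Tlr6 and Tlr9 met the filter on low counts only through groups given CCl4, so against WT NC they could be called only as higher. For those genes the counts, the lack of overlap and the medians against WT NC are partly set by the filter. In samples of mixed cells such as these, fewer cells of a type and less RNA per cell cannot be told apart.

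How many receptor genes were called in the comparisons with KO depended on single libraries. Without KO 75, 9 of the 10 differed between KO CCl4 and WT CCl4 (8 lower, and Tlr5 higher), Tlr4 being the exception. Without WT CCl4 13, 2 did (Tlr2 and Cd14), and without any other single library, a WT NC one included, 0 did. Over all genes the count of calls in this comparison was 717, against 5453 without KO 75 and 5 without WT CCl4 12. Against WT NC, in KO CCl4, 3 were called without KO 75 (Tlr5, Tlr8 and Tlr9), 4 without KO 79, 3 without WT CCl4 12, and 1, Tlr5, without any 1 of the WT NC libraries. For WT CCl4 against WT NC, 9 or 10 were called whichever library was left out.

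**Figure D1:**
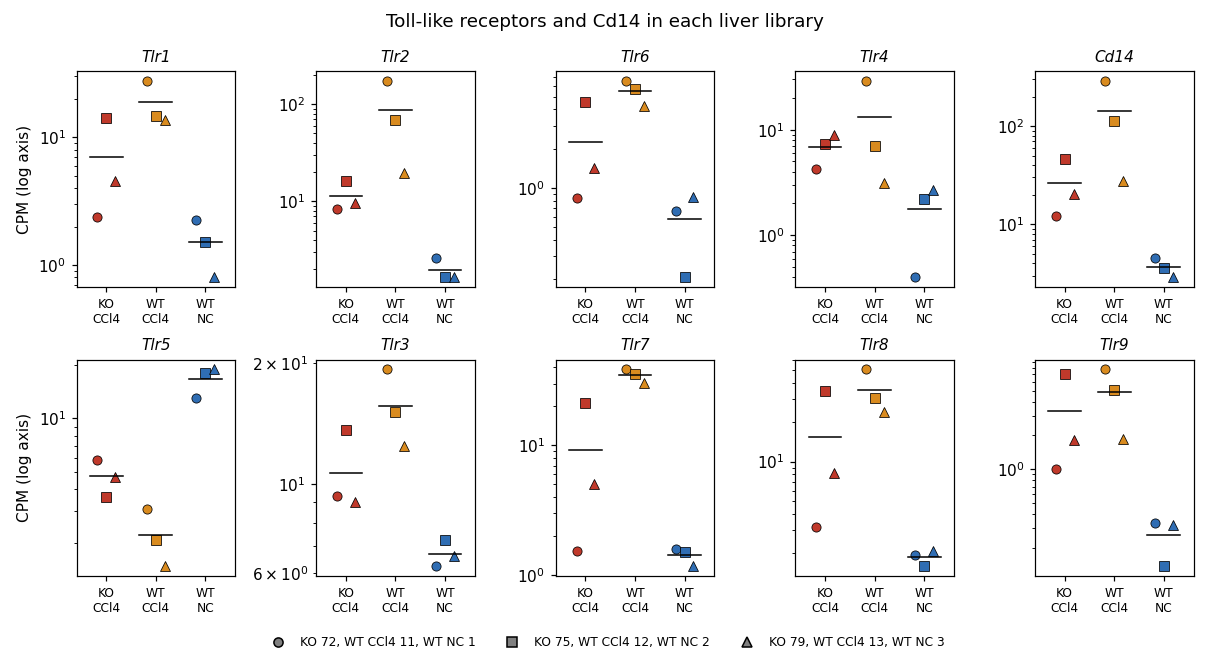
CPM of the 9 receptors and Cd14 in each library on a log axis, with a panel per gene, a point per library and a line at each group's mean (KO CCl4, WT CCl4 and WT NC, 3 libraries each). Tlr5 is highest in WT NC, at 13.1 to 18.9 CPM, while the other 9 genes are highest in WT CCl4 on average, and the square for KO 75 lies above KO 72 and KO 79 for 8 of the 10 genes, all but Tlr4 and Tlr5.

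Tlr2 pairs with Tlr1 to bind triacylated bacterial lipoproteins and with Tlr6 to bind diacylated ones. Of these 3 genes, Tlr2 (chromosome 3, 83836272 to 83841767, minus strand, mm10) had the one call against WT CCl4 in KO, and with Cd14 it had the highest log2 fold changes of the 10 genes with CCl4 in WT. These differed by less than their SE, and with limma on log2(FPKM + 1), where Tlr2 was at 3.98, Cd14 was above Tlr2. It stood at 8.40, 16.2 and 9.62 CPM in KO 72, 75 and 79, at 174, 69.4 and 19.4 CPM in WT CCl4 11, 12 and 13, and at 2.59, 1.65 and 1.65 CPM in WT NC 1, 2 and 3. All KO CCl4 libraries were below all WT CCl4 libraries, but WT CCl4 13 was close to KO 75, and all were above WT NC. The log2 fold change of Tlr2 for KO CCl4 against WT CCl4 was -2.94 ± 0.67 (SE, edgeR adjusted p = 0.0471), that is, lower in KO CCl4. That call did not hold without KO 72, KO 79, WT CCl4 11, WT CCl4 12 or any WT NC library. Over all 16 alternatives the log2 fold change ran from -3.41 to -1.96 and the adjusted p reached 0.194, and 5 of the 16 kept the call, among them those without KO 75 (log2 fold change -3.28, adjusted p = 0.0112) and without WT CCl4 13 (-3.41, 0.0122). Against WT NC, Tlr2 was higher by 5.48 ± 0.78 on the log2 scale in WT CCl4 (edgeR adjusted p = 0.00108) and by 2.54 ± 0.71 in KO CCl4 (edgeR adjusted p = 0.0333). The rise in WT CCl4 held in 16 of 16 alternatives. The rise in KO CCl4 held in 8 of 16 and was lost without KO 75 (adjusted p = 0.0778), KO 79 (0.0566), WT CCl4 12 (0.0513) and each WT NC library (0.0779 to 0.108, all by edgeR).

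The RefSeq promoter window of Tlr2 (GRCm38.p6, chr3:83841559-83841858, minus strand, 250 bases before the start site to 50 after it) is shown because Tlr2 had the only call in KO against WT CCl4. It was searched on both strands for GGGA, N and TTTCC in a row (NF-kB, with N any base), GAGGAAG (PU.1 and other ETS factors), TGANTCA (AP-1) and TTTC, NN and TTTC in a row (interferon response). None of these exact letters is in this window, so it has no capitals, but other forms of each site were not searched for. Its G and C bases make up 62%, against a median of 52.7% over all promoters in the table.
Tlr2: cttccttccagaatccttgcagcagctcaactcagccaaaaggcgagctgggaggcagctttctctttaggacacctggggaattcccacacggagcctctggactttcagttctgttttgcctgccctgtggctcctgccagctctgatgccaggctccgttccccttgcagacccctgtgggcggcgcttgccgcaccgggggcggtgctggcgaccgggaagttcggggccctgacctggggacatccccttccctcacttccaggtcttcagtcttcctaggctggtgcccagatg
Of 32851 promoters of that length, 0.411% hold the NF-kB letters, 13.6% the ETS letters, 7.81% the AP-1 letters and 3.44% those of the interferon response. Of the 10 genes, 7 matched that table (Tlr1, Tlr2, Tlr3, Tlr5, Tlr6, Tlr8 and Tlr9), with 9 windows. Tlr4, Tlr7 and Cd14 had no match.

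Tlr1 and Tlr6 lie next to each other on chromosome 5 (Tlr1 at 64924679 to 64933563 and Tlr6 at 64952031 to 64960097, both minus strand, mm10). Their transcripts share 454 stretches of 50 bases, 13.6% of those in Tlr1 and 12.3% of those in Tlr6, with a longest shared run of 229 bases, and no other pair of the 10 genes shares any. The sources used here do not give how the authors' counting divided such reads, so the separate values of Tlr1 and Tlr6 are uncertain. Tlr1 stood at 2.38, 14.2 and 4.56 CPM in KO 72, 75 and 79, at 27.8, 14.8 and 13.8 CPM in WT CCl4 11, 12 and 13, and at 2.26, 1.52 and 0.800 CPM in WT NC 1, 2 and 3. KO 75 lay among the WT CCl4 libraries and KO 72 close to WT NC 1. Tlr1 was higher in WT CCl4 than in WT NC by 3.63 ± 0.69 on the log2 scale (edgeR adjusted p = 0.00274). In KO CCl4 it was higher than in WT NC by 2.23 ± 0.67 (edgeR adjusted p = 0.0424), a call lost without KO 75 (1.21, adjusted p = 0.125), KO 79 (0.0551), WT CCl4 12 (0.0636), WT CCl4 13 (0.0511) or any WT NC library (0.0754 to 0.128). Against WT CCl4 the difference of -1.41 ± 0.61 in KO CCl4 did not pass the test (edgeR adjusted p = 0.152), and without KO 75 it was -2.43 (adjusted p = 0.00579).

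Tlr6 had the same order of group means as Tlr1 and Tlr2. It stood at 0.834, 4.52 and 1.43 CPM in KO 72, 75 and 79, at 6.62, 5.72 and 4.26 CPM in WT CCl4 11, 12 and 13, and at 0.664, 0.207 and 0.853 CPM in WT NC 1, 2 and 3. Its rise in WT CCl4 over WT NC was 3.23 ± 0.69 on the log2 scale (edgeR adjusted p = 0.00432) and held in 16 of 16 alternatives. KO CCl4 and WT NC overlapped, since KO 72 was just below WT NC 3, and the difference of 1.95 ± 0.68 did not pass (edgeR adjusted p = 0.0651). Against WT CCl4 the value was -1.28 ± 0.61 in KO CCl4 (edgeR adjusted p = 0.181), and -2.28 without KO 75 (adjusted p = 0.00821).

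Tlr4 is the receptor for bacterial lipopolysaccharide (LPS). LPS is handed to it by the plasma protein Lbp and by Cd14, and it binds with the co-receptor MD-2, encoded by Ly96. Among the genes of this complex Cd14 rose most with CCl4 in WT, Tlr4 rose less, Lbp fell, and Ly96 did not pass the test. Cd14 (chromosome 18, 36725074 to 36726736, minus strand, mm10) stood at 12.0, 46.6 and 20.2 CPM in KO 72, 75 and 79, at 291, 112 and 27.7 CPM in WT CCl4 11, 12 and 13, and at 4.52, 3.58 and 2.88 CPM in WT NC 1, 2 and 3. KO 75 exceeded WT CCl4 13, so the CCl4 groups overlapped, and every library given CCl4 was above every WT NC library. It was higher in WT CCl4 than in WT NC by 5.30 ± 0.89 on the log2 scale (edgeR adjusted p = 0.00171, held in 16 of 16 alternatives). In KO CCl4 it was higher than in WT NC by 2.85 ± 0.81 (edgeR adjusted p = 0.0347), which was lost without KO 75 (2.15, adjusted p = 0.0883), KO 79 (0.0563), WT CCl4 12 (0.0541) or any WT NC library (0.0895 to 0.11). The difference between KO CCl4 and WT CCl4, -2.45 ± 0.76, did not pass (edgeR adjusted p = 0.0769). It passed without KO 75 (-3.15, adjusted p = 0.0170) and without WT CCl4 13 (-2.93, adjusted p = 0.0352).

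Tlr4 (chromosome 4, 66827584 to 66930284, plus strand, mm10) stood at 4.23, 7.35 and 8.85 CPM in KO 72, 75 and 79, at 29.2, 6.96 and 3.16 CPM in WT CCl4 11, 12 and 13, and at 0.398, 2.21 and 2.67 CPM in WT NC 1, 2 and 3. The WT CCl4 mean was set mainly by WT CCl4 11, and the KO CCl4 libraries all lay inside the WT CCl4 range. Tlr4 was higher in WT CCl4 than in WT NC by 2.88 ± 0.87 on the log2 scale (edgeR adjusted p = 0.0198). That call was lost without WT CCl4 11 (1.52, adjusted p = 0.0962), WT NC 1 (2.42, 0.0577) or WT NC 2 (3.06, 0.0514). In KO CCl4 the value was 1.94 ± 0.85 over WT NC (edgeR adjusted p = 0.124), although the groups did not overlap. Against WT CCl4 it was -0.94 ± 0.79 in KO CCl4 (edgeR adjusted p = 0.422), and 0.43 without WT CCl4 11 (adjusted p = 0.727), so Tlr4 has no settled direction there.

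Ly96 ranged between 2.91 and 3.39 CPM in KO CCl4, 3.70 and 5.16 CPM in WT CCl4 and 2.08 and 4.05 CPM in WT NC. It passed the test in none of the 3 comparisons with all libraries, but was higher in WT CCl4 than in WT NC without WT NC 1 (log2 fold change 1.02, edgeR adjusted p = 0.0231). Lbp, which hepatocytes secrete into blood, had its lowest values in WT CCl4. It stood at 65.1, 69.0 and 71.2 CPM in KO 72, 75 and 79, at 24.2, 21.8 and 25.3 CPM in WT CCl4 11, 12 and 13, and at 120, 85.1 and 73.8 CPM in WT NC 1, 2 and 3. The 3 groups did not overlap. Lbp was lower in WT CCl4 than in WT NC by a log2 fold change of -1.97 ± 0.19 (edgeR adjusted p = 0.000359), and higher in KO CCl4 than in WT CCl4 by 1.53 ± 0.19 (edgeR adjusted p = 0.0125). The second call held without KO 75 (1.52, adjusted p = 0.00127) and was lost without KO 79 (1.50, 0.0623) or WT CCl4 12 (1.47, 0.0948). KO CCl4 against WT NC gave -0.44 ± 0.18 (edgeR adjusted p = 0.109).

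**Figure D2:**
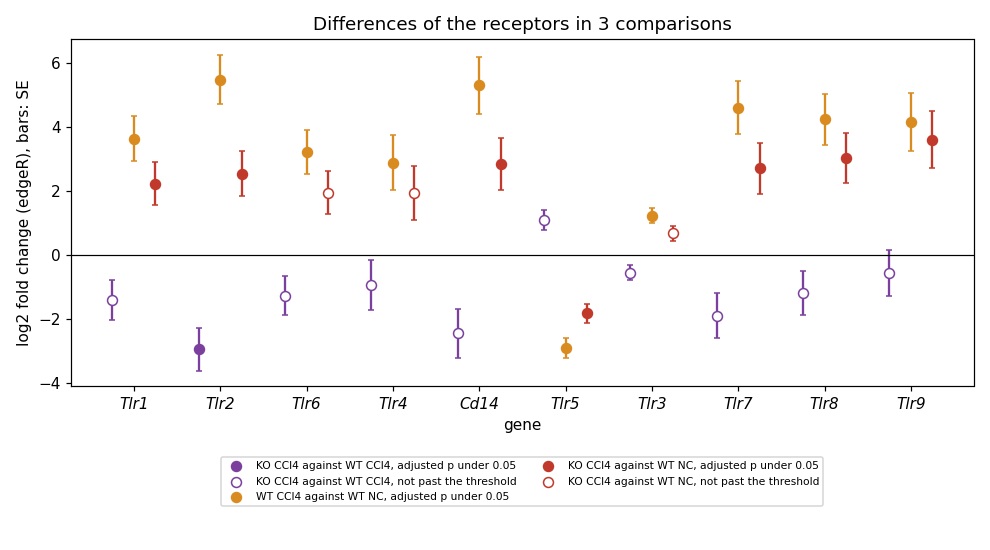
Log2 fold changes of the 9 receptors and Cd14 (edgeR, y axis) in the 3 comparisons, with bars of 1 SE, filled points where the adjusted p was under 0.05 and open points otherwise. All 10 points for WT CCl4 against WT NC are filled, 7 for KO CCl4 against WT NC, and 1, Tlr2 at -2.94, for KO CCl4 against WT CCl4.

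Tlr5, the receptor for bacterial flagellin, ran opposite to the other 9. It stood at 5.84, 3.63 and 4.67 CPM in KO 72, 75 and 79, at 3.08, 2.07 and 1.47 CPM in WT CCl4 11, 12 and 13, and at 13.1, 17.9 and 18.9 CPM in WT NC 1, 2 and 3. The 3 groups were fully separate, with KO CCl4 between the others. Tlr5 fell in WT CCl4 against WT NC, with a log2 fold change of -2.91 ± 0.32 (edgeR adjusted p = 0.000515), and in KO CCl4 against WT NC, with -1.82 ± 0.30 (edgeR adjusted p = 0.00593). Both falls held in 16 of 16 alternatives. Between KO CCl4 and WT CCl4 the value was 1.09 ± 0.31 (edgeR adjusted p = 0.0654), not past the threshold, although the libraries did not overlap, as was so for 15.9% of all genes in the upward direction. It was 1.25 without KO 75 (adjusted p = 0.0144). The gene lies on chromosome 1, from 182954788 to 182976044, plus strand (mm10). Its RefSeq promoter window (GRCm38.p6, chr1:182954538-182954837, plus strand) is shown because it belongs to the only one of the 10 genes that fell, and none of the letters searched is in it.
Tlr5: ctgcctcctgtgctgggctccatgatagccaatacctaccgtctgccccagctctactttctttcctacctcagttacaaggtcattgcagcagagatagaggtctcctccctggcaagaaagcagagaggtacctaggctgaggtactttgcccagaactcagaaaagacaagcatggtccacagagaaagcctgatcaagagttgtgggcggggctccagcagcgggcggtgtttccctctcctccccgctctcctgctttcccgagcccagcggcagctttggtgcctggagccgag
Hepatocyte markers shifted in the same direction as Tlr5 and Lbp. The summed level of the 6 hepatocyte markers was 73542 to 87499 CPM in KO CCl4, 38308 to 64110 CPM in WT CCl4 and 80498 to 98872 CPM in WT NC. Of the 6, 5 were lower in WT CCl4 than in WT NC by edgeR at an adjusted p under 0.05, beside 25% of all genes. In KO CCl4, 2 were higher than in WT CCl4 by edgeR (3 unadjusted, 3 by DESeq2, and 3 without KO 75). Over all genes 3.46% were higher there (1572 of 14134 by DESeq2, and 2495 of 14469 without KO 75). Between KO CCl4 and WT NC 0 were called by edgeR (0 unadjusted, and 0 by DESeq2), beside 23% of all genes. The part of the hepatocyte markers in the Tlr5 and Lbp results was not tested.

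The endosomal receptors for RNA and DNA make up the rest of the family. Tlr7 senses single-stranded RNA, as does the human counterpart of Tlr8, Tlr9 senses DNA with unmethylated CpG and Tlr3 senses double-stranded RNA. Tlr7, Tlr8 and Tlr9 rose with CCl4 in WT and were also higher in KO CCl4 than in WT NC, with KO 75 several times above the other libraries labelled KO. Tlr7 stood at 1.55, 21.1 and 5.002 CPM in KO 72, 75 and 79, at 38.6, 35.3 and 30.0 CPM in WT CCl4 11, 12 and 13, and at 1.59, 1.52 and 1.17 CPM in WT NC 1, 2 and 3. The WT CCl4 libraries were close to each other and above all others, while KO 72 lay within the WT NC range. Tlr7 was higher in WT CCl4 than in WT NC by 4.60 ± 0.82 on the log2 scale (edgeR adjusted p = 0.00214). In KO CCl4 it was higher than in WT NC by 2.70 ± 0.78 (edgeR adjusted p = 0.0372), but not without KO 75 (1.21, adjusted p = 0.0821), WT CCl4 12 (0.0591) or any WT NC library (0.0995 to 0.113). KO CCl4 against WT CCl4 gave -1.90 ± 0.70 (edgeR adjusted p = 0.110), with no overlap of libraries, as was so for 15.8% of all genes in the downward direction. Without KO 75 it was -3.39 (adjusted p = 0.00101).

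Tlr8, the neighbour of Tlr7 on chromosome X (167242696 to 167264329, minus strand, with Tlr7 at 167304929 to 167330558, mm10), stood at 3.16, 34.8 and 8.19 CPM in KO 72, 75 and 79. It stood at 50.8, 30.9 and 24.0 CPM in WT CCl4 11, 12 and 13, and at 1.93, 1.59 and 2.08 CPM in WT NC 1, 2 and 3. KO 75 lay inside the WT CCl4 range. Tlr8 was higher than in WT NC by 4.23 ± 0.81 on the log2 scale in WT CCl4 (edgeR adjusted p = 0.00281) and by 3.04 ± 0.78 in KO CCl4 (edgeR adjusted p = 0.0254). The second call held without KO 75 (1.60, adjusted p = 0.0385) and was lost without any WT NC library (0.0776 to 0.0896). Between KO CCl4 and WT CCl4 the value was -1.19 ± 0.70 (edgeR adjusted p = 0.256), and -2.63 without KO 75 (adjusted p = 0.00311).

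Tlr9 (chromosome 9, 106222598 to 106226883, plus strand, mm10) was near the floor in WT NC, with 5, 2 and 6 counts in the 3 libraries. It stood at 1.01, 7.02 and 1.81 CPM in KO 72, 75 and 79, at 7.73, 5.03 and 1.84 CPM in WT CCl4 11, 12 and 13, and at 0.332, 0.138 and 0.320 CPM in WT NC 1, 2 and 3. KO 79 and WT CCl4 13 had almost the same level. Its rise over WT NC was 4.16 ± 0.89 on the log2 scale in WT CCl4 (edgeR adjusted p = 0.00456) and 3.60 ± 0.89 in KO CCl4 (edgeR adjusted p = 0.0226). Without KO 75 the rise in KO CCl4 was 2.38 (adjusted p = 0.0486), and it was lost without any WT NC library (0.0689 to 0.0826). Between KO CCl4 and WT CCl4 the value was -0.56 ± 0.71 (edgeR adjusted p = 0.603), and -1.77 without KO 75 (adjusted p = 0.0465). Its RefSeq promoter window (GRCm38.p6, chr9:106222348-106222647, plus strand) is shown because it holds matches to more of the motifs than any other window of the 10 genes. The capitals mark GAGGAAG at -112 from the start site, TGACTCA at -58 and CTTCCTC, the reverse complement of the ETS letters, at 11.
Tlr9: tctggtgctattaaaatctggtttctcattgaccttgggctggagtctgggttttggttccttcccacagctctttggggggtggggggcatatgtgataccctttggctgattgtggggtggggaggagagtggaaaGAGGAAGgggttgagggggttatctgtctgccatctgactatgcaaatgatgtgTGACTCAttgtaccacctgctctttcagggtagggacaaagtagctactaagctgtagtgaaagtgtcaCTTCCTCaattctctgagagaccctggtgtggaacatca
These are matches of letters only. GAGGAAG was also found once in a Tlr1 window, at -23, and the interferon response letters in a Tlr6 window, as overlapping TTTCTCTTTC at -116 and TTTCACTTTC at -110.

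Tlr3 had the smallest change of the 10 with CCl4 in WT. It stood at 9.36, 13.7 and 9.01 CPM in KO 72, 75 and 79, at 19.3, 15.1 and 12.5 CPM in WT CCl4 11, 12 and 13, and at 6.24, 7.24 and 6.61 CPM in WT NC 1, 2 and 3. The CCl4 groups overlapped, since KO 75 was above WT CCl4 13, and WT NC lay below all of them. It was higher in WT CCl4 than in WT NC by 1.22 ± 0.23 on the log2 scale (edgeR adjusted p = 0.00271, held in 16 of 16 alternatives). In KO CCl4 the value over WT NC was 0.67 ± 0.23 (edgeR adjusted p = 0.0627), with no overlap of libraries. Against WT CCl4 it was -0.55 ± 0.23 (edgeR adjusted p = 0.139), and -0.76 without KO 75 (adjusted p = 0.0232). The gene (chromosome 8, 45395665 to 45410608, minus strand, mm10) shares 381 exon bases with Gm45542, an antisense gene on the other strand in GENCODE M21, and the sources used here do not give whether counting used strand. Its RefSeq promoter window (GRCm38.p6, chr8:45410331-45410630, minus strand) is shown because it is the only window of the 10 genes with the NF-kB letters, GGGAGTTTCC at -211, in capitals.
Tlr3: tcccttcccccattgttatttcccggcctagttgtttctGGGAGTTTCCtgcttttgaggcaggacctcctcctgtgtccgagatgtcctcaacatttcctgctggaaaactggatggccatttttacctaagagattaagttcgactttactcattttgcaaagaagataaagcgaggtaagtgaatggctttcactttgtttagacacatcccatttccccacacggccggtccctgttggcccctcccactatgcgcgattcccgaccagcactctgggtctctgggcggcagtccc

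Of the other Toll-like receptors of the mouse, Tlr13, which senses bacterial ribosomal RNA, was high in KO 75 and WT CCl4, as Tlr7 and Tlr8 were. It stood at 5.72, 59.3 and 15.4 CPM in KO 72, 75 and 79, at 110, 60.1 and 38.7 CPM in WT CCl4 11, 12 and 13, and at 1.86, 1.72 and 1.71 CPM in WT NC 1, 2 and 3. It rose in WT CCl4 over WT NC by 5.30 ± 0.86 on the log2 scale (edgeR adjusted p = 0.00157) and in KO CCl4 over WT NC by 3.93 ± 0.82 (edgeR adjusted p = 0.0130). Tlr12, which senses a profilin of protozoan parasites, was lower in WT CCl4 than in WT NC by a log2 fold change of -0.99 ± 0.29 (edgeR adjusted p = 0.0171). Tlr11 was at 0.197 to 1.18 CPM in all libraries and passed no test. Between KO CCl4 and WT CCl4 0 of the 3 were called by edgeR, 0 at an unadjusted p under 0.05 and 0 by DESeq2. Without KO 75, Tlr12 was higher in KO CCl4 than in WT CCl4 (log2 fold change 0.80, edgeR adjusted p = 0.0109) and Tlr13 was lower (-2.72, adjusted p = 0.00465). The Tlr12 call was lost without WT CCl4 12 (adjusted p = 0.0533) or WT NC 3 (0.0504), and that of Tlr13 in KO CCl4 without any WT NC library (0.0527 to 0.0547).

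Levels of different genes were compared as FPKM, the authors' values per length of transcript and depth. Cd14 had the highest mean in every group, 17.3 FPKM in KO CCl4, 107 FPKM in WT CCl4 and 2.12 FPKM in WT NC. In KO CCl4 it was followed by Tlr2 (3.79 FPKM), Tlr8 (2.12) and Tlr3 (1.84), and Tlr5 was last (0.413). From Tlr2 down, no neighbour in that order differed beyond the spread of its libraries. In WT CCl4 the order was Cd14, Tlr2 (34.0 FPKM), Tlr8 (5.23), Tlr1 (3.54), Tlr7 (3.48), Tlr3 (3.17), Tlr4 (2.26), Tlr9 (1.63), Tlr6 (1.55) and Tlr5 (0.240), and only Tlr6 and Tlr5 among neighbours had separate ranges. In WT NC, Tlr5 (1.42 FPKM) followed Cd14, and then Tlr3 (1.07), ahead of Tlr2 (0.595) and Tlr4 (0.238), with separate ranges down to Tlr4, and Tlr9 was last (0.0698). Tlr5 thus lay below the other 9 genes in WT CCl4 and next to Cd14 in WT NC, while in KO CCl4, at 0.389 to 0.460 FPKM, it lay within the ranges of Tlr1, Tlr6, Tlr7, Tlr8 and Tlr9.

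Macrophage markers moved with most of these receptors. The marker counts below are set against all genes tested, of which 29.5% were higher in WT CCl4 than in WT NC. In KO CCl4, 14% were higher than in WT NC (2775 of 14134 by DESeq2, and 1437 of 14469 without KO 75). Against WT CCl4, 1.61% were lower in KO CCl4 (1306 of 14134 by DESeq2, and 2958 of 14469 without KO 75). Any marker that met the filter on low counts only through groups given CCl4 could be called only as higher against WT NC. Of the 7 neutrophil markers listed, 2 to 4 were at 0 in each WT NC library, and of the 5 monocyte markers 0 or 1. Marker counts against WT NC may thus be partly set by the filter. The macrophage list (Adgre1, Cd68, Csf1r, Lyz2 and Mertk) summed to 226, 1846 and 549 CPM in KO 72, 75 and 79, to 3684, 2175 and 1467 CPM in WT CCl4 11, 12 and 13, and to 213, 166 and 199 CPM in WT NC 1, 2 and 3. Of its 5 genes, 0 were called between KO CCl4 and WT CCl4 (2 at an unadjusted p under 0.05, 2 by DESeq2, and 5 lower without KO 75), 5 were higher in WT CCl4 than in WT NC, and 3 were higher in KO CCl4 than in WT NC (1 without KO 75), by edgeR at an adjusted p under 0.05. Neutrophil markers summed to 20.7 to 39.2 CPM in KO CCl4, 33.5 to 73.7 CPM in WT CCl4 and 2.83 to 6.71 CPM in WT NC, with 6 of the 6 tested higher in both groups given CCl4 than in WT NC. In KO CCl4 against WT CCl4 0 of the 6 were called by edgeR (1 unadjusted, 1 lower by DESeq2, and 1 lower without KO 75). B cell markers, of a cell type that carries Tlr9, summed to 2.44 to 15.2 CPM in KO CCl4, 17.1 to 43.7 CPM in WT CCl4 and 2.03 to 4.20 CPM in WT NC, and 6 of 6 were higher in WT CCl4 than in WT NC. In KO CCl4 against WT NC 0 of the 6 were called by edgeR (1 at an unadjusted p under 0.05, and 1 by DESeq2), and against WT CCl4 0 were (3 unadjusted, 2 lower by DESeq2, and 5 lower without KO 75). Markers of Kupffer cells, the resident macrophages of the liver, summed to 393 to 1986 CPM in KO CCl4, 1080 to 2704 CPM in WT CCl4 and 228 to 290 CPM in WT NC, with 5 of 5 higher in WT CCl4 and 2 of 5 in KO CCl4 than in WT NC. That count of 2 was 5 without KO 72 and 1 without KO 75, WT CCl4 12 or any 1 of the WT NC libraries. In KO CCl4 against WT CCl4 0 of the 5 were called by edgeR (0 unadjusted, 0 by DESeq2, and 3 lower without KO 75). Monocyte markers summed to 19.4 to 122 CPM in KO CCl4, 61.4 to 118 CPM in WT CCl4 and 3.09 to 4.58 CPM in WT NC, with 5 of 5 higher in both groups given CCl4 than in WT NC. In KO CCl4 against WT CCl4 0 of the 5 were called by edgeR (1 unadjusted, 0 by DESeq2, and 3 lower without KO 75). Markers of sinusoidal endothelium summed to 506 to 752 CPM in KO CCl4, 770 to 960.1 CPM in WT CCl4 and 254 to 333 CPM in WT NC. Of these 7, 7 were higher in KO CCl4 (6 without KO 75) and 6 in WT CCl4 than in WT NC. Without KO 75, 5 were lower in KO CCl4 than in WT CCl4 (0 with it, 3 by DESeq2, and 3 at an unadjusted p under 0.05). Markers of stellate cells and fibroblasts summed to 186 to 892 CPM in KO CCl4, 774 to 965 CPM in WT CCl4 and 75.7 to 211 CPM in WT NC. Of these 6, 2 were higher in KO CCl4 (1 without KO 75, and 6 by DESeq2) and 6 in WT CCl4 than in WT NC, and 5 were lower in KO CCl4 than in WT CCl4 without KO 75 (0 with it, 0 by DESeq2, and 2 at an unadjusted p under 0.05). Markers of plasmacytoid dendritic cells summed to 0.656 to 4.57 CPM in KO CCl4, 5.89 to 15.9 CPM in WT CCl4 and 0.664 to 0.896 CPM in WT NC, with up to 2 of the 4 at 0 in KO 72 and WT NC. Of the 3 tested, 1 was higher in KO CCl4 (0 without KO 75, and 1 by DESeq2) and 3 in WT CCl4 than in WT NC. Without KO 75, 3 were lower in KO CCl4 than in WT CCl4 (0 with it, 1 by DESeq2, and 3 at an unadjusted p under 0.05). Of 6 dendritic cell markers, 5 were higher in WT CCl4 and 1 in KO CCl4 than in WT NC. In KO CCl4 against WT CCl4 1 of them was lower (2 unadjusted, 1 by DESeq2, and 2 without KO 75). Of 5 T and NK cell markers and 4 bile duct markers, 0 were called between KO CCl4 and WT CCl4, although 2 bile duct markers were lower without KO 75. The part of these markers in the receptor results was not tested.

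Set against the macrophage markers in the same library (log2 CPM of the receptor minus the mean log2 CPM of the 5 markers), Tlr1 and Tlr6 had nearly the same mean in all groups. Tlr1 averaged -4.03 in KO CCl4, -4.06 in WT CCl4 and -4.21 in WT NC, and Tlr6 averaged -5.57 in KO CCl4, -5.76 in WT CCl4 and -5.50 in WT NC. Within WT NC, however, Tlr1 lay between -5.08 and -3.65 and Tlr6 between -6.26 and -5.00. Tlr6 was at the floor in WT NC 2 (0.207 CPM), and shared stretches leave the separate values of Tlr1 and Tlr6 uncertain, as given above. Tlr8 averaged -3.19 in KO CCl4, -3.16 in WT CCl4 and -3.84 in WT NC. Tlr2 averaged -3.02 in KO CCl4, -2.28 in WT CCl4 and -3.79 in WT NC, and Cd14 averaged -1.99 in KO CCl4, -1.63 in WT CCl4 and -2.92 in WT NC. Their spread was wide, since Tlr2 lay between -3.31 and -1.47 within WT CCl4. Tlr7 averaged -3.99 in KO CCl4, -3.12 in WT CCl4 and -4.20 in WT NC. Tlr5 and Tlr3 had their lowest means relative to these markers in WT CCl4. Tlr5 averaged -4.24 in KO CCl4, -7.07 in WT CCl4 and -0.76 in WT NC. Tlr3 averaged -3.08 in KO CCl4, -4.28 in WT CCl4 and -2.05 in WT NC. In KO 72, 75 and 79, Tlr5 stood at -2.67, -5.99 and -4.07 and Tlr3 at -2.004, -4.10 and -3.14. For Tlr3, KO 75 lay inside the WT CCl4 range (-4.64 to -3.94) and KO 72 inside the WT NC range (-2.22 to -1.72). The KO CCl4 means of Tlr5 and Tlr3 thus average unlike libraries. Tlr4 averaged -3.76 in KO CCl4, -5.10 in WT CCl4 and -4.24 in WT NC. It stood at -3.13, -4.99 and -3.17 in KO 72, 75 and 79. KO 75 thus lay inside the ranges of WT CCl4 (-5.89 to -4.05) and WT NC (-5.87 to -3.39) for Tlr4. Tlr9 averaged -5.17 in KO CCl4, -6.13 in WT CCl4 and -6.28 in WT NC. Tlr9 was near the floor in WT NC, where the prior count of 2 in log2 CPM raises its values. How close Tlr9 in WT NC lies to WT CCl4 on this scale is therefore uncertain. These differences are a description with no test.

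**Figure D3:**
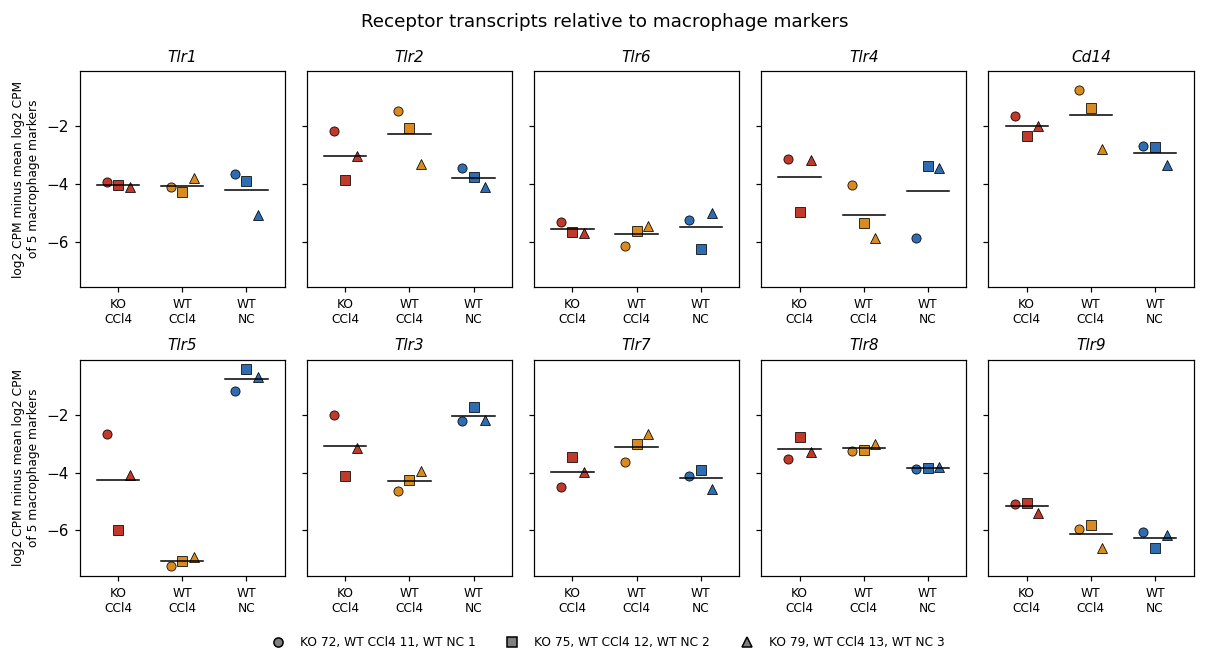
Log2 CPM of each receptor minus the mean log2 CPM of 5 macrophage markers in the same library (y axis), with a point per library and a line at each group's mean. The group means of Tlr1 and Tlr6 sit at nearly the same height, though WT NC libraries run from -5.08 to -3.65 and from -6.26 to -5.00. Tlr5 lies at -7.24 to -6.93 in WT CCl4 and at -1.17 to -0.43 in WT NC.

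Within the groups given CCl4, the receptors differed in how far apart the libraries of 1 group lay. In WT CCl4, Cd14 was 10.5 times, Tlr4 9.24 times and Tlr2 9.01 times as high in library 11 as in library 13, ratios reached by 1.01%, 1.11% and 1.16% of all genes tested. The summed macrophage list was 2.51 times as high there, Tlr7 1.28 times, Tlr8 2.12 times and Tlr1 2.02 times. The summed list of 20 genes that Toll-like receptor signalling is known to induce, such as Tnf and Cxcl2, was 12.2 times as high. In KO CCl4 the ratios of KO 75 to KO 72 had another order. Tlr7 was 13.6 times, Tlr8 11.0 times and Tlr13 10.4 times as high in KO 75, ratios reached by 2.1%, 2.66% and 2.76% of all genes tested. The macrophage list was 8.18 times as high, a ratio reached by 3.89%. Tlr9 was 6.93 times (and 4.20 times in the WT CCl4 pair), Tlr1 5.97 times and Tlr6 5.42 times as high. Tlr2 was 1.93 times and Tlr4 1.74 times as high, Cd14 3.87 times, and the induced genes 1.11 times. Each of these ratios rests on a pair of libraries and has no replicate check.

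**Figure D4:**
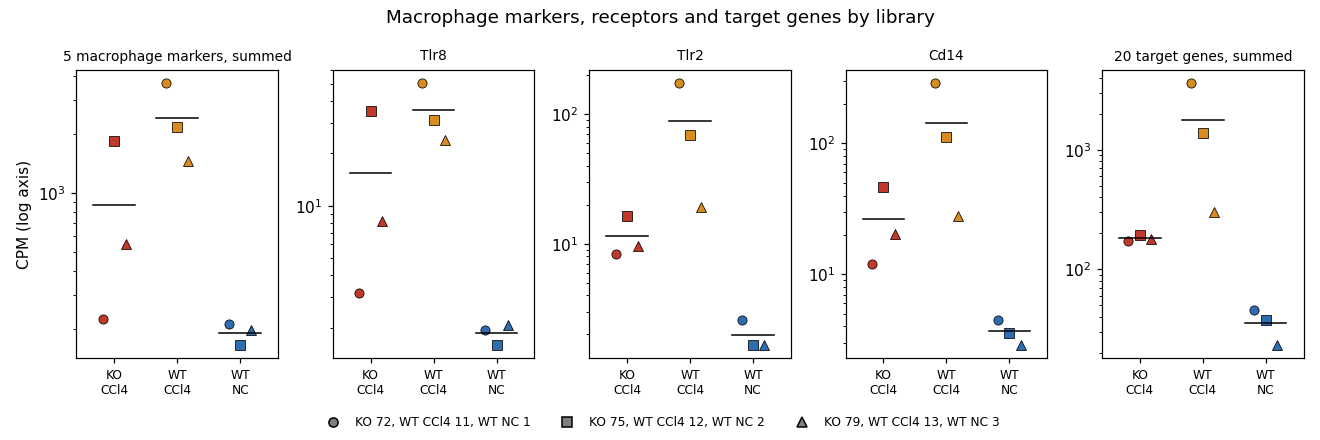
CPM on log axes per library of the summed macrophage markers, Tlr8, Tlr2, Cd14 and the summed list of 20 induced genes, with lines at group means. KO 75 stands high for the macrophage markers (1846 CPM) and Tlr8 (34.8 CPM), whereas the induced genes are at 173 to 193 CPM in all 3 libraries labelled KO and at 300 to 3650 CPM in WT CCl4.

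Likeness of pattern was measured as the root mean square distance between centred log2 CPM over the 9 libraries, so 0 is an identical shape, and it shares groups and libraries across all genes. Among the 10 genes Tlr2 and Cd14 were closest to each other (0.30), followed by Tlr7 and Tlr8 (0.43) and Tlr1 and Tlr8 (0.49). Tlr5 was farthest from all others, at 1.71 or more. Of all other genes, Klf6 (0.314) and Plek (0.374) were nearest to Tlr2, and Cd44 (0.316) and Ifit2 (0.363) to Cd14. Tlr8 was nearest to Col5a2 (0.183) and Ctss (0.190), Tlr7 to Pf4 (0.296) and Cd200r1 (0.312), Tlr1 to Trpv2 (0.220) and Ear2 (0.232), Tlr6 to P2ry14 (0.185) and Tm6sf1 (0.246), and Tlr9 to Pyhin1 (0.232) and Ncf1 (0.258). Tlr5 was nearest to Angptl4 (0.286) and Eci2 (0.321), the second an enzyme of fatty acid oxidation. Tlr3 was nearest to Agps (0.071) and Wnk1 (0.087), and Tlr4 to Casz1 (0.560) and Cd40 (0.662). The distance is not scaled to a gene's own spread, which was smallest for Tlr3 (SD 0.57 over the libraries, against 1.31 to 2.30 for the other 9). Distances of different receptors to their nearest other genes are therefore not ranked. The order of pairs among the 10 genes holds for unscaled distances only.

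**Figure D5:**
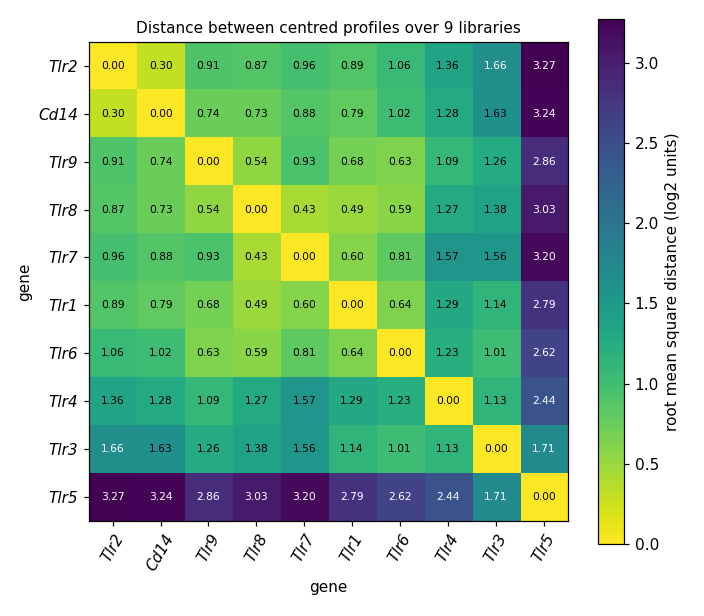
Root mean square distance (log2 units, colour and printed value) between the centred profiles of each pair of the 10 genes over 9 libraries. Tlr2 and Cd14 form the closest pair at 0.30, Tlr7, Tlr8 and Tlr1 lie within 0.60 of each other, and Tlr5 is at 1.71 to 3.27 from every other gene.

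Counts for the partners and processing factors of the receptors, and for the signalling chain after them, are set against shares of all genes. These were 54.4% called in WT CCl4 against WT NC, 23% in KO CCl4 against WT NC and 5.07% in KO CCl4 against WT CCl4. In the last comparison 2878 of 14134 genes were called by DESeq2, and 5453 of 14469 without KO 75. Of 5 ligand-binding partners, 3 were higher and 1 (Lbp) lower in WT CCl4 than in WT NC, among them Cd180, a receptor of B cells and myeloid cells related to Tlr4 (log2 fold change 4.72, edgeR adjusted p = 0.00189), and Cd36, a lipid receptor that works with Tlr2 (2.62, adjusted p = 0.00114). Both were also higher in KO CCl4 than in WT NC (2.96 and 1.52), where 3 of 5 were higher. Of 10 genes for trafficking and processing of endosomal receptors, 5 were higher and 1 lower in WT CCl4 than in WT NC, a share near that of all genes, with the protease gene Lgmn at 3.19 and Grn, whose product helps carry CpG DNA to Tlr9, at 1.73 higher and Slc15a4 at -0.59 lower on the log2 scale. In KO CCl4 against WT NC 3 of 10 were higher, with Ctss, a protease that cleaves endosomal receptors, at 3.14 and Grn at 1.03. Against WT CCl4, 1 of the 5 partners (Lbp) was higher and 0 of the 10 processing genes were called in KO CCl4 by edgeR (3 at an unadjusted p under 0.05, and 1 by DESeq2). Without KO 75, 1 partner was higher and 3 were lower, and 5 processing genes were lower. In KO CCl4 against WT NC, the calls of Cd180 (1.92, adjusted p = 0.0614) and Grn (0.82, 0.0702) were lost without KO 75, that of Grn also without KO 79 or WT CCl4 12, and those of Cd180, Cd36, Ctss and Grn without any WT NC library (adjusted p 0.0529 to 0.106 by edgeR). The Slc15a4 call was lost without WT NC 2 (-0.32, adjusted p = 0.189) and without KO 72, KO 79 or any WT CCl4 library.

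The signalling chain follows. Myd88, the adaptor of all these receptors except Tlr3, stood at 20.6, 25.3 and 22.6 CPM in KO 72, 75 and 79, at 44.9, 25.5 and 14.3 CPM in WT CCl4 11, 12 and 13, and at 17.6, 20.2 and 19.0 CPM in WT NC 1, 2 and 3, and passed no test with all libraries. In WT CCl4 against WT NC its log2 fold change was 0.90 without WT CCl4 13 (edgeR adjusted p = 0.0156, past the threshold) and 0.075 without WT CCl4 11 (adjusted p = 0.818). Of 4 adaptors tested, 2 were higher in WT CCl4 than in WT NC, Ticam2 (log2 fold change 3.06) and Ticam1 (1.02), of the TRIF branch that Tlr3 and Tlr4 use, and 0 were called by edgeR in either comparison with KO (1 in each at an unadjusted p under 0.05, and by DESeq2 1 against WT NC and 0 against WT CCl4). Without KO 75, Tirap, the bridging adaptor of Tlr2 and Tlr4, was higher in KO CCl4 than in WT CCl4 (log2 fold change 0.88, edgeR adjusted p = 0.0108) and Ticam2 was lower (-1.95, adjusted p = 0.0347). Of 16 kinases and ubiquitin ligases, 5 were higher and 2 lower in WT CCl4 than in WT NC, a share below the 54.4% of all genes, with Map3k8 at 3.17 and Ikbke at 0.91 higher, and Chuk at -1.59 and Map3k7 at -0.46 lower. In KO CCl4 against WT NC 3 were higher, including Traf3 (1.78) and Ikbke (0.71), and Chuk (-1.09) and Map3k7 (-0.64) were lower, while 0 of 16 were called against WT CCl4 by edgeR (2 at an unadjusted p under 0.05, and 1 by DESeq2). Without KO 75, Chuk was higher in KO CCl4 than in WT CCl4 (0.67, edgeR adjusted p = 0.00806) and Map3k8 lower (-2.36, adjusted p = 0.00828). Of 9 transcription factors, 6 were higher in WT CCl4 than in WT NC, among them the NF-kB subunits Relb (2.79) and Nfkb2 (2.35), and Irf3 was lower (-0.80). In KO CCl4, Irf7 was higher than in WT NC (1.16), Rel was lower than in WT CCl4 (-2.61) and Irf3 higher (0.61). Without KO 75, 4 factors were lower and 1 higher in KO CCl4 than in WT CCl4. The Irf7 call was lost without KO 75 (0.59, adjusted p = 0.108) and without any other library except KO 72, that of Rel without any except KO 75 and WT CCl4 13 (adjusted p up to 0.196), and that of Irf3 in KO CCl4 without any except KO 75 (up to 0.196). Ticam1 was lost without WT CCl4 11 (0.51, adjusted p = 0.102) or any WT NC library, Map3k7 in WT CCl4 without any WT CCl4 library, WT NC 1 or WT NC 3 (adjusted p 0.0554 to 0.110), and the KO CCl4 calls of Traf3, Ikbke and Map3k7 over WT NC without any WT NC library (0.0521 to 0.102) and, for Traf3 and Ikbke, without KO 79 (0.0803 and 0.0579), for Ikbke also without KO 75 (0.0515).

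Many genes induced by the pathway were lower in KO CCl4 than in WT CCl4. Of the 18 induced genes tested, or 20 in the list, 9 were lower in KO CCl4, beside 1.61% of all genes. Higher there was 1, Nos2, the inducible nitric oxide synthase (log2 fold change 3.39, edgeR adjusted p = 0.0493), beside 3.46% of all genes. Tnf stood at 0.715, 0.989 and 1.04 CPM in KO 72, 75 and 79, at 366, 134 and 24.2 CPM in WT CCl4 11, 12 and 13, and had 1 count in all WT NC libraries together. Its log2 fold change for KO CCl4 against WT CCl4 was -7.56 ± 0.98 (edgeR adjusted p = 0.0135), and that of the neutrophil chemokine Cxcl2 was -5.34 ± 0.81 (edgeR adjusted p = 0.0201). The median over the 18 was -3.92, against -0.03 over all genes tested. Without KO 75, 12 of 19 tested were lower and 1 higher, beside 2958 lower and 2495 higher of all 14469 genes. Without WT CCl4 13, 16 were lower, and without WT CCl4 11 or any 1 WT NC library 2 were lower. Without KO 72, KO 79 or WT CCl4 12, 0 were called. In WT CCl4 against WT NC 17 of 18 were higher, Cxcl2 by 10.28 ± 1.11 on the log2 scale (edgeR adjusted p = 0.000494), and in KO CCl4 against WT NC 7 were higher, including Nos2 (4.72) and the acute-phase gene Saa3 (2.42). That last count was 5 without KO 75 and 1 or 2 without a WT NC library. Over all genes tested, 29.5% were higher in WT CCl4 and 14% in KO CCl4 than in WT NC. Of the 20, 6 or 7 were at 0 in each WT NC library. Tnf and Cxcl2 (mean 0.167 CPM in WT NC) met the filter on low counts only through groups given CCl4. Genes of that kind could be called only as higher against WT NC, so these counts are partly set by the filter. In each library labelled KO, 1 to 3 of the 20 were at 0. A gene that met the filter only through WT CCl4 could be called only as lower in KO CCl4 than in WT CCl4. The count of 9 lower and the median of -3.92 may thus also be partly set by the filter.

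Inhibitors of the pathway, several of them induced by it, differed too. Tnfaip3 (A20), which removes ubiquitin chains from signalling proteins and is itself induced by NF-kB, stood at 19.1, 18.4 and 19.7 CPM in KO 72, 75 and 79, at 826, 327 and 71.3 CPM in WT CCl4 11, 12 and 13, and at 1.59, 2.27 and 4.26 CPM in WT NC 1, 2 and 3. It was lower in KO CCl4 than in WT CCl4 (log2 fold change -4.42 ± 0.78, edgeR adjusted p = 0.0312), higher in WT CCl4 than in WT NC by 7.22 ± 0.90 (edgeR adjusted p = 0.000757) and higher in KO CCl4 than in WT NC by 2.80 ± 0.76 (edgeR adjusted p = 0.0305). The last call was lost without KO 79 (2.77, adjusted p = 0.0608) or any WT NC library (0.0600 to 0.102). Of 10 inhibitors tested, 4 were lower in KO CCl4 than in WT CCl4, among them Nfkbia, the inhibitor that holds NF-kB in the cytoplasm (-2.67), and 6 were lower and 1 higher without KO 75. Over all genes tested, 1.61% were lower in that comparison, and 2958 of 14469 without KO 75. In WT CCl4 against WT NC 6 inhibitors were higher, including Tnip1 (2.34), beside 29.5% of all genes. In KO CCl4 against WT NC 1, Tnfaip3, was higher, beside 14% of all genes. Without KO 72, KO 79, WT CCl4 11, WT CCl4 12 or any WT NC library, 0 inhibitors were called lower in KO CCl4 than in WT CCl4.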

How the data were processed

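Whole-number counts per gene and FPKM were deposited for 9 libraries in 1 table, per the file headers. Per the submitters' processing notes, HISAT2 2.0.4 and StringTie 1.3.0 were used with mm10. The counting tool and its strand and multi-mapping settings are not stated in the sources used here. FPKM as deposited were used to compare levels between genes and in limma alternatives, on log2(FPKM + 1) or log2(FPKM + 0.1).

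Counts were tested with edgeR 4.0.16 (R 4.3.3, TMM, filterByExpr, quasi-likelihood fit of a mean per group over all 9 libraries, Benjamini-Hochberg over 14134 genes, threshold 0.05), a script tested on simulated data. The SE is the absolute log2 fold change over the square root of F. Totals of 16447353 to 20373585 counts were scaled by TMM for CPM, and log2 CPM used a prior count of 2. Alternatives used DESeq2 1.42.0 and limma 3.58.1. Groups came from sample titles. Since the labels do not state separate animals, the p-values rest on a spread that may be technical. Libraries of 1 group differed from each other by 13.1 to 174 times sampling noise (chi-square per degree of freedom). The receptors and the pathway and cell lists were chosen with earlier results of these data known. All 10 receptors are named, with Tgfbr2, Ly96, Lbp and Myd88 whatever their values, the up to 2 genes of smallest p in each direction from each pathway list among those called, and the 2 genes nearest to each receptor among those with a mean of at least 1 CPM. Genes called only without KO 75 (Tirap among them) were named after their values were seen. Promoters are RefSeq windows of GRCm38.p6, scanned on both strands. Symbols stored as dates (27) were restored from gene identifiers.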

Additional observations from a re-analysis of the deposited data

How the results depend on the processing

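For WT CCl4 against WT NC, 9 or 10 of the 10 receptor genes were called under every alternative run, Tlr4 being the one lost (limma on log2(FPKM + 1), with or without a filter, and 3 libraries left out). For KO CCl4 against WT CCl4 the count was 1. It was 4 with DESeq2, 0 with limma on log2(FPKM + 0.1), 0 with limma on unfiltered log2(FPKM + 1), 0 with only the 6 libraries compared, and 0 to 9 with 1 library left out. With limma on filtered log2(FPKM + 1), Tlr7 was called as lower and Tlr2 was not called. For KO CCl4 against WT NC the count was 7, and it was 10 with DESeq2, 1 with limma on log2(FPKM + 1), 2 with log2(FPKM + 0.1), 1 with no filter, and 1 to 8 with 1 library left out. With 1 library left out, 4 log2 fold changes not past the threshold changed sign. For KO CCl4 against WT CCl4, Tlr4 ran from -1.40 to 0.43 and Myd88 from -0.62 to 0.20, both positive only without WT CCl4 11. For KO CCl4 against WT NC, Tgfbr2 ran from -0.36 (without KO 75) to 0.56 and Ly96 from -0.057 (without WT NC 3) to 0.50. The cause was not tested. Over all genes, calls for KO CCl4 against WT CCl4 numbered 717, with 2878 by DESeq2, 371 with log2(FPKM + 0.1), 413 with unfiltered FPKM, 30 with 6 libraries and 5 to 5453 with 1 library left out. For KO CCl4 against WT NC they numbered 3247, with 4614 by DESeq2, 1711 by limma on log2(FPKM + 1), 1470 unfiltered and 1264 to 3679 with 1 library left out. Of the induced genes, 9 were lower in KO CCl4 than in WT CCl4, with 15 by DESeq2, 6 with log2(FPKM + 0.1), 2 with unfiltered FPKM and 0 with 6 libraries (0 to 16 with 1 library left out), and of the inhibitors 4, with 6, 1, 0 and 0 under those settings. No paired analysis was possible because the replicate numbers differ between the groups. Depth limits Tlr6, Tlr9 and Tlr11, with few counts in WT NC.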
